A study of Homo sapiens with 4 samples.

Results

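The cadherin superfamily genes described here were the protein-coding genes on chromosomes 1 to 22 of RefSeq GRCh38 with a span under 1 Mb and a symbol of the CDH, CDHR, PCDH, desmoglein (DSG), desmocollin (DSC) or FAT series. The rule used names and gene length only and no measured value. It took 98 genes out of 19060 protein-coding genes within the same limits. The clustered protocadherin genes of chromosome 5 stand side by side, and those of the PCDHA and PCDHG clusters overlap. The PCDHA, PCDHB and PCDHG clusters were therefore also counted as 1 locus each, which left 48 loci. A peak belonged to a gene when its summit, the position of highest signal, lay in the gene span or within 1 kb of it.

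The measurement was ChIP-seq of H3K4bhb, histone H3 carrying beta-hydroxybutyrate on lysine 4, in HK-2 cells. HK-2 is an established line of human kidney tubule epithelium. All the cells received hydrogen peroxide (H2O2), an oxidant. In 1 group H2O2 was given alone, and the other received BHBNa, the sodium salt of the ketone body beta-hydroxybutyrate, before H2O2. No group without H2O2 was analysed here, and the sources used here gave no doses or exposure times. For either treatment there was a single immunoprecipitated (IP) library with a control, named IgG in the title and input in the library name, and these gave 1 list of peaks. There were no replicates, so every difference below lies between these libraries and intervals cover counting error only.

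Cadherins are calcium-dependent adhesion proteins of the cell surface. Classical cadherins join neighbouring cells at adherens junctions, where catenins connect their tails to actin, and desmogleins and desmocollins do the same at desmosomes, which are anchored to intermediate filaments. Protocadherins form a larger group that is known best from neurons, where the clustered genes give each cell its own surface identity. Kidney tubule cells are held together by E-cadherin (CDH1), N-cadherin (CDH2) and kidney-specific cadherin (CDH16), and exchange of E-cadherin for N-cadherin is a textbook mark of epithelial cells that lose their polarity. Lysine beta-hydroxybutyrylation is a histone modification that follows the level of the ketone body.

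The deposited lists held 6251 peaks for H2O2 and 11510 for H2O2 + BHBNa. The authors' peak caller gave each peak a fold enrichment over background, a p-value and a q-value, the p-value adjusted for the number of positions tested. From the fold and the p, the IP fragment number under every summit and the local background were recovered for 99.9% and 100% of the peaks. The lowest background, which scales with IP depth, was 0.274 fragments for H2O2 and 0.102 for H2O2 + BHBNa, a ratio of 2.68. A peak resting on 2 fragments could therefore pass in the H2O2 + BHBNa list, where 51.9% of all peaks did, and 0% of those in the H2O2 list did so. Treatment and depth cannot be told apart, least of all for peaks of that size. The main counts are therefore also given at 3 fragments or more. That limit removes none of the H2O2 peaks and does not match the lists for depth.

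H3K4bhb summits lay in 8 of the 98 genes under H2O2 (8.16%, 95% exact binomial interval 3.59 to 15.5%) and in 27 under H2O2 + BHBNa (27.6%, 19 to 37.5%). Over all 19060 genes, which were not matched for length, the shares were 7.7% and 15.2%. The 8 genes under H2O2 were CDH2, CDH7, CDH8, CDH11, CDH20, FAT3, PCDH9 and PCDH17. Counted as loci, 8 of 48 held a summit under H2O2 (16.7%, 7.48 to 30.2%) and 23 of 48 under H2O2 + BHBNa (47.9%, 33.3 to 62.8%). The number of loci with a peak was 2.88 times as high in the H2O2 + BHBNa list. Over all genes, which differ from these loci in length, the number with a peak was 1.98 times as high. With 3 fragments or more, 13 loci held a summit under H2O2 + BHBNa and 8 under H2O2.

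Cadherin loci are long, with a median span of 89.3 kb against 24.3 kb over all genes, and a longer gene has more room for a peak. Other genes of the same lengths were therefore used as the yardstick, in 6 length classes. At the shares seen in those genes, 8.43 of the 48 loci would hold a summit under H2O2 and 14.5 (30.3%) under H2O2 + BHBNa, against 8 and 23 counted. The H2O2 count lay at the yardstick. Under H2O2 + BHBNa the yardstick of 30.3% lay below the interval of the counted share. The share was higher than in other genes in all 6 classes, though each class interval included the value of other genes. For example, 7 of 11 loci of 100 to 200 kb (63.6%) and 5 of 11 loci of 50 to 100 kb (45.5%) held a summit, against 40.8% and 21.1% of the other genes of those lengths. Restricted to peaks of 3 fragments or more, 13 loci held a summit under H2O2 + BHBNa (27.1%, 15.3 to 41.8%) against 8.62 (18%) at the yardstick, which then lay inside the interval. Counted as 98 genes, where each clustered gene enters separately, the yardstick for all peaks was 14.8 under H2O2 and 27.3 under H2O2 + BHBNa. The counts were 8 and 27. The higher H2O2 + BHBNa count was thus seen in loci and not in genes, where the H2O2 count lay below the yardstick.

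**Figure D1:**
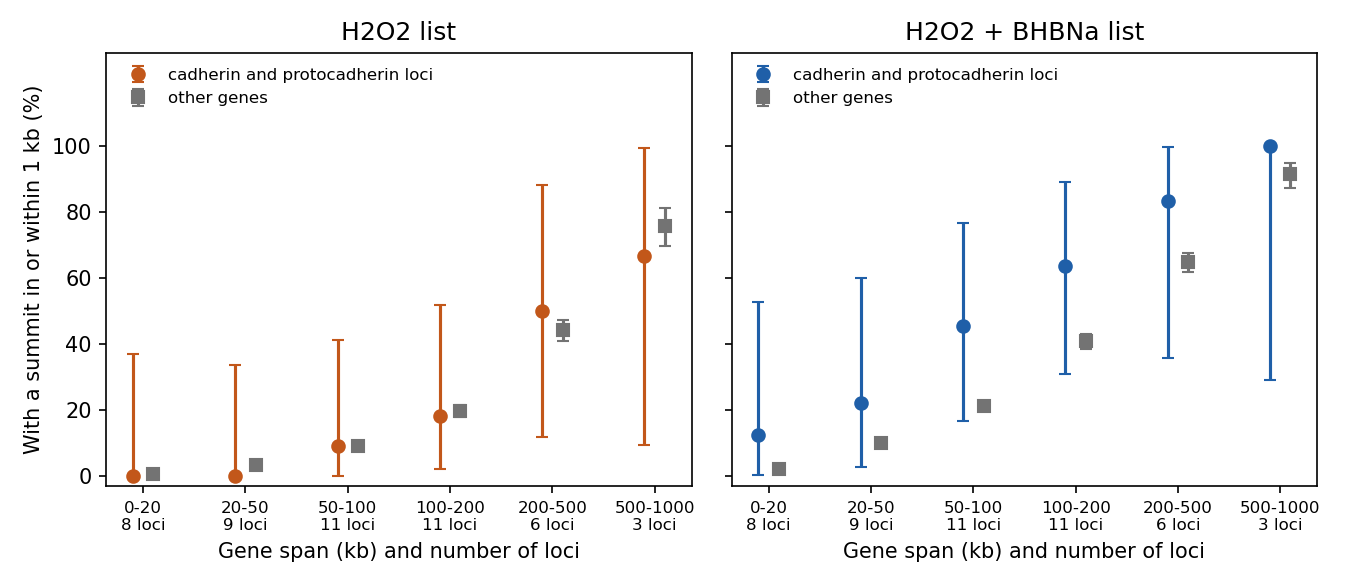
Share of loci holding an H3K4bhb summit (y axis, %) by gene span in kb (x axis), for the H2O2 list (left) and the H2O2 + BHBNa list (right). Circles are the 48 cadherin and protocadherin loci and squares are all other genes of the class, with 95% exact binomial bars for counting error. Under H2O2 the circles lie on both sides of the squares, and under H2O2 + BHBNa all 6 circles lie above them, with wide bars.

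Distinct peaks numbered 16 under H2O2 (2.25 per Mb of the genes' merged 7.13 Mb, 95% exact Poisson interval 1.28 to 3.65) and 33 under H2O2 + BHBNa (4.63 per Mb, 3.19 to 6.5). The density in other genes of the same length gives 14.7 and 28.1 peaks, both within the intervals around the counted numbers. The H2O2 + BHBNa count was 2.06 times the H2O2 count, and that of the whole lists 1.84 times. At 3 fragments or more, each list held 16 peaks in these genes, against 14.7 and 13.7 at the density of other genes. The H2O2 + BHBNa peaks were spread over more loci, of which 15 held 1 peak, 7 held 2 and 1 held 3 or more. Under H2O2, 5 loci held 1 peak, 1 held 2 and 2 held 3 or more. The shortest gene with a peak was PCDH17 at 99.2 kb under H2O2, and CDHR4 at 12.2 kb under H2O2 + BHBNa.

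**Figure D2:**
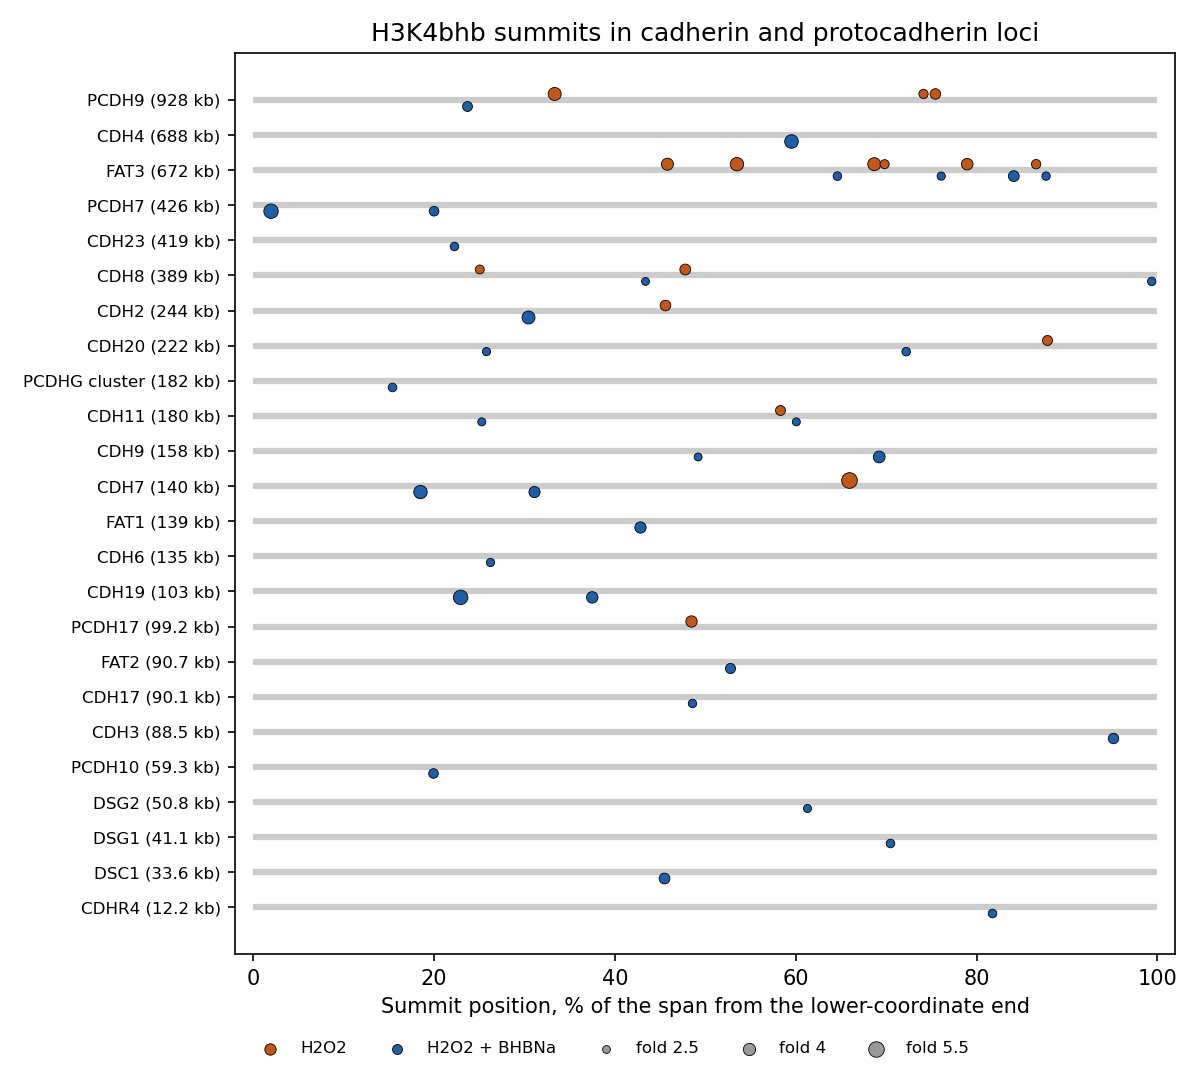
Position of every H3K4bhb summit in the 24 loci that held one, as % of the span from the end with the lower coordinate (x axis), with loci ordered by span (y axis). Orange points above a line are the H2O2 list, blue points below it the H2O2 + BHBNa list, and point area follows the authors' fold enrichment. Summits lie inside the spans, and 7 loci carry both colours.

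No summit of either list lay within 1 kb of an end of any of the 98 genes, where 0.247% of all genes under H2O2 and 0.803% under H2O2 + BHBNa had one. A count of 0 of 98 allows a share of up to 3.06% if the genes are taken as separate, so a difference from other genes was not detectable. The PCDHA genes share an end, as do the PCDHG genes, so the limit is in fact higher. The H2O2 summits lay a median of 164 kb from the nearer gene end and the H2O2 + BHBNa summits 45.5 kb. An annotated end is not always where transcription begins, because many genes have several starts, so the starts in the RefSeq promoter table were used as well. The table held 91 promoter windows for 76 of the 98 genes, each from 250 bases before to 50 after a start. No window overlapped a peak, against 2 of 21030 windows of all genes under H2O2 and 12 under H2O2 + BHBNa. Overlaps were so rare over all windows that 0 of 91 cannot tell these genes from others. The nearest summits under H2O2 + BHBNa lay 819 bases upstream of the listed CDHR4 start, 1171 bases downstream of the second listed CDH8 start, and 1680 bases upstream of PCDHGB2, all of 2 fragments. That CDHR4 start lies within the gene span, so the CDHR4 summit was also inside the gene, 2.22 kb from its nearer end. Under H2O2 the nearest lay 7471 bases from a start, the second of CDH2.

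Those 3 promoters are printed because they are the cadherin starts closest to the mark in these data. Sequences are from RefSeq GRCh38.p14 and run 5′ to 3′ on the strand of the gene. CG, which reads the same on both strands, was the motif searched, and each occurrence is in capitals. CG marks the sites where DNA can be methylated, and promoters rich in it are often open in many tissues.
CDHR4 promoter, minus strand, chr3:49799824-49800123: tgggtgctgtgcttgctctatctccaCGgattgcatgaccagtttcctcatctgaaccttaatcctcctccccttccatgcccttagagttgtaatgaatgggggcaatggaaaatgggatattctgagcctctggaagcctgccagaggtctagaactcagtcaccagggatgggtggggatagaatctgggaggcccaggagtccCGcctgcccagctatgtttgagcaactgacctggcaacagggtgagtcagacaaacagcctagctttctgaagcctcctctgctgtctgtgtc
CDH8 promoter of the second listed start, minus strand, chr16:62035137-62035436: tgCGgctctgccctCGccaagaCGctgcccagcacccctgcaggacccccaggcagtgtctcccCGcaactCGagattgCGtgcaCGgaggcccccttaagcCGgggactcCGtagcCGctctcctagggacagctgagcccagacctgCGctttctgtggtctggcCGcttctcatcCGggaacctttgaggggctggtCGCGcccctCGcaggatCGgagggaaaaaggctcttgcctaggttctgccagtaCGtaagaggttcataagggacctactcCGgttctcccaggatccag
PCDHGB2 promoter, plus strand, chr5:141359886-141360185: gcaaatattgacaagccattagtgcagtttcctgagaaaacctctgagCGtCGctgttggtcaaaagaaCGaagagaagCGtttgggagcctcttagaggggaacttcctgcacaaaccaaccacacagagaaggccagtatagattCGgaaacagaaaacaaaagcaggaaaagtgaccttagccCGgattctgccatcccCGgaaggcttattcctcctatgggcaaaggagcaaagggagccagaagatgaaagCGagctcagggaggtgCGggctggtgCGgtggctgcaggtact

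The CDHR4 window held 2 CG, and 10.3% of all promoter windows held as few or fewer. The same share was 31.4% for the 10 CG of PCDHGB2 and 46.5% for the 19 CG of CDH8. The peak near PCDHGB2 lay outside its 1 kb limit and was not counted for that gene. At least 1 CG stood in 98.0% of all promoter windows of this length. The 91 cadherin windows were poor in CG, with a median of 8 against 21 over all windows, and their median GC content was 47.3% against 62.7%. The starts of the clustered protocadherins had a median of 7.5 and those of the other genes 11. This is a property of the sequence and not of the libraries, and any relation to the placing of peaks was not tested.

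Among the type I classical cadherins, which form the main adherens junctions, 1 of 5 genes held a summit under H2O2 and 3 of 5 under H2O2 + BHBNa, against 1.41 and 2.08 at the shares of other genes of their length. CDH2, N-cadherin, on chromosome 18 from 27932879 to 28177130, held 1 peak in each list. Its H2O2 peak had a fold of 3.36 (q 0.441) on 4 fragments. Its H2O2 + BHBNa peak, at 28006938 to 28007189, had a fold of 4.26 (q 0.0171), also on 4 fragments, with its summit 37.1 kb from the other. CDH4, R-cadherin, known from retina and kidney development, had no peak under H2O2. Under H2O2 + BHBNa it had 1 at 61661082 to 61661510 of chromosome 20, with a fold of 4.54 (q 0.00322) on 4 fragments. CDH3, P-cadherin, held 1 H2O2 + BHBNa peak of 3.3-fold (q 0.201) on 3 fragments. CDH1, E-cadherin, which spans 98.2 kb next to CDH3 on chromosome 16, held none in either list, and neither did the 23.7 kb CDH15, muscle cadherin.

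The type II classical cadherins, relatives that sort cells in the nervous system, vessels and mesenchyme, held 5 peaks under H2O2 and 13 under H2O2 + BHBNa, or 2.96 and 7.69 per Mb of their merged 1690 kb. Of the 11 genes, 4 and 7 held a summit, against 2.3 and 4.27 at the length yardstick. With 3 fragments or more the H2O2 + BHBNa list held 5 type II peaks in 3 genes, against 2.42, so the density was 2.96 per Mb in both lists. CDH7, on chromosome 18 from 65750252 to 65890337, carried the highest H2O2 peak of all 98 genes, at 65842070 to 65842803, with a fold of 5.55 (q 0.00237) on 9 fragments. Under H2O2 + BHBNa, CDH7 held 2 peaks elsewhere, of 4.47-fold (q 0.0238) on 5 fragments and 3.55-fold (q 0.0602) on 3, the nearest 48.8 kb from the H2O2 summit. CDH7 was thus marked in both lists at separate positions.

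CDH19, a cadherin of Schwann cells that lies near CDH7 on chromosome 18, had no H2O2 peak and carried the highest H2O2 + BHBNa peak of the 98 genes. That peak, at 66524552 to 66524799, had a fold of 4.96 (q 0.00322) on 5 fragments, and a further peak had 3.67-fold (q 0.135) on 4. CDH9 held 2 H2O2 + BHBNa peaks, the higher of 3.79-fold (q 0.0956) on 4 fragments, and none under H2O2. CDH6, K-cadherin, a cadherin of developing and cancerous kidney tubule, held 1 H2O2 + BHBNa peak of 2.63-fold (q 0.326) on 2 fragments.

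CDH8, CDH11 and CDH20 held peaks in both lists, and all of their H2O2 + BHBNa peaks rested on 2 fragments. CDH8 held 2 peaks in each list, the highest of 3.44-fold (q 0.378) on 6 fragments under H2O2 and 2.68-fold (q 0.326) under H2O2 + BHBNa. CDH11, OB-cadherin of mesenchymal cells, held 1 H2O2 peak of 3.14-fold (q 0.494) on 7 fragments and 2 H2O2 + BHBNa peaks of up to 2.57-fold (q 0.326). CDH20 held 1 H2O2 peak of 3.14-fold (q 0.494) on 3 fragments and 2 of up to 2.72-fold (q 0.326) under H2O2 + BHBNa. CDH5, the VE-cadherin of endothelium, held none, nor did CDH10, CDH22 and CDH24.

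The desmosomal genes, all 7 in a single stretch of chromosome 18, had no H2O2 peak, and 3 had 1 each under H2O2 + BHBNa, against 0.349 and 0.928 genes at the length yardstick. With 3 fragments or more 1 gene was left, DSC1. The DSC1 peak had a fold of 3.4 (q 0.124) on 3 fragments. The DSG1 and DSG2 peaks had 2.72-fold and 2.56-fold (q 0.326 for each) on 2 fragments. DSG2 is the desmoglein of simple epithelia, and DSG1 and DSC1 belong to the upper layers of skin. Among the other CDH genes, CDH23, which forms the tip links of inner-ear hair cells, and CDH17, the liver-intestine cadherin, held 1 H2O2 + BHBNa peak each, of 2.69-fold and 2.67-fold (q 0.326 for each) on 2 fragments. CDH16, the kidney-specific cadherin, spans 10.8 kb and held none. Of the 4 other CDH genes, 0 held a summit under H2O2 and 2 under H2O2 + BHBNa, against 0.628 and 1.09 at the length yardstick. Of the 5 cadherin-related CDHR genes, CDHR4 alone held a peak, of 2.72-fold (q 0.326) on 2 fragments under H2O2 + BHBNa. The length yardstick for the 5 was 0.229 genes under H2O2 and 0.57 under H2O2 + BHBNa. The brush-border genes CDHR2 and CDHR5, which link neighbouring microvilli, held none.

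The 53 clustered protocadherin genes held a single peak between them. It lay in the PCDHG cluster, at 141358255 to 141358633 of chromosome 5, under H2O2 + BHBNa, with a fold of 2.72 (q 0.326) on 2 fragments. Because the PCDHG genes share their last exons and so overlap, that 1 summit fell in 5 genes, PCDHGA1, PCDHGA2, PCDHGA3, PCDHGA4 and PCDHGB1. These account for 5 of the 27 genes counted under H2O2 + BHBNa. Of the 3 clusters, 0 held a summit under H2O2 and 1 under H2O2 + BHBNa, against 0.835 and 1.46 at the length yardstick. The PCDHA cluster (15 genes, 226 kb) and the PCDHB cluster (16 genes, 198 kb) held none in either list, and the PCDHG cluster (22 genes, 182 kb) held none under H2O2.

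The non-clustered protocadherins lie apart on several chromosomes, and 2 of 9 held a summit under H2O2 and 3 of 9 under H2O2 + BHBNa, against 1.44 and 2.18 at the length yardstick. PCDH7, on chromosome 4 from 30720369 to 31146800, had no H2O2 peak. Under H2O2 + BHBNa it had 1 at 30728292 to 30728872, with a fold of 4.92 (q 0.00684) on 6 fragments, the most of any H2O2 + BHBNa peak in the 98 genes, and 1 of 3.03-fold on 3. The higher summit stood 8.34 kb inside the gene end. PCDH9, a long gene of chromosome 13, held 3 H2O2 peaks, the highest of 4.29-fold (q 0.11) on 5 fragments, and 1 H2O2 + BHBNa peak of 3.12-fold (q 0.326) on 3. PCDH17 was the 1 gene with a summit under H2O2 alone, of 3.63-fold (q 0.247) on 7 fragments. PCDH10 held 1 H2O2 + BHBNa peak of 3.02-fold (q 0.326) on 3 fragments, and PCDH1, an epithelial protocadherin, held none.

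FAT genes encode giant cadherins, and the fly counterpart Fat governs planar polarity and Hippo signalling. FAT3, on chromosome 11 from 92224818 to 92896473, held the most peaks of any of the 98 genes, 6 under H2O2 and 4 under H2O2 + BHBNa. The highest had 4.46-fold (q 0.0665) on 5 fragments under H2O2 and 3.42-fold (q 0.121) on 3 under H2O2 + BHBNa. The H2O2 summits stood at 45.8% to 86.6% of the span, counted from the lower coordinate, and the H2O2 + BHBNa summits at 64.6% to 87.7%, so the first 308 kb held none. This made 8.91 peaks per Mb under H2O2 and 5.94 under H2O2 + BHBNa, against 3.0 in each list over the 500 kb on either side. Without FAT3 the H2O2 peaks in the remaining genes numbered 10, or 1.55 per Mb (0.743 to 2.85). The H2O2 + BHBNa peaks then numbered 29, or 4.49 per Mb (3.01 to 6.45). Leaving out the gene with the most peaks must lower the count, and no length yardstick was made without it. FAT1, the FAT gene of kidney podocytes and tubule, held 1 H2O2 + BHBNa peak of 3.59-fold (q 0.0484) on 3 fragments. FAT2 held 1 of 3.19-fold (q 0.311) on 3, with its summit also inside the overlapping gene SLC36A1, an amino acid transporter. FAT4 held none in either list. Of the 4 FAT genes, 1 held a summit under H2O2 and 3 under H2O2 + BHBNa, against 1.24 and 1.94 at the length yardstick. With 3 fragments or more the same 3 did under H2O2 + BHBNa, against 1.27.

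Genes with a summit in both lists numbered 7 (7.14%, 95% exact binomial interval 2.92 to 14.2%), against 4.04% of all genes. They were CDH2, CDH7, CDH8, CDH11, CDH20, FAT3 and PCDH9. They made up 87.5% of the genes with an H2O2 summit and 25.9% of those with an H2O2 + BHBNa summit, against 52.5% and 26.5% over all genes. The first contrast was smaller within length classes and at 3 fragments or more. Among other genes with an H2O2 summit, the shares in the same length classes give 5.28 of the 8 loci also in the H2O2 + BHBNa list, against 7. With 3 fragments or more, 4 of the 8 were in both lists (CDH2, CDH7, FAT3 and PCDH9), against 3.74. In none of the 7 did a peak of one list overlap a peak of the other, and the same held for nearly all genes with a summit in both lists, of which 2.34% (18 of 770) had an overlap. The nearest pair of summits was 3.18 kb apart in CDH11, followed by 7.4 kb in FAT3, 17.1 kb in CDH8, 34.5 kb in CDH20, 37.1 kb in CDH2, 48.8 kb in CDH7 and 90.2 kb in PCDH9. At the shares of other genes of their length, 5.42 loci would have a summit in both lists.

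Peaks in these genes were about as strong as other peaks of their list. The median fold was 3.4 under H2O2 (range 2.81 to 5.55) and 2.72 under H2O2 + BHBNa (2.53 to 4.96), against 3.51 and 2.72 over all peaks. The median number of fragments was 5 and 2, against 4 and 2, and 17 of the 33 H2O2 + BHBNa peaks (51.5%) rested on 2 fragments. The q was 0.05 or lower in 1 of 16 H2O2 peaks (6.25%) and in 6 of 33 H2O2 + BHBNa peaks (18.2%, 6.98 to 35.5%), against 7.23% and 15.2% of all peaks. These lay in 1 gene under H2O2, CDH7 (1.02% of the 98, against 0.666% of all genes), and in 6 under H2O2 + BHBNa, CDH2, CDH4, CDH7, CDH19, FAT1 and PCDH7 (6.12%, against 2.96%). At this limit the shares of other genes of the same length give 0.814 loci (1.7%) and 3.28 loci (6.84%). The counted shares of the 48 loci were 2.08% (0.0527 to 11.1%) and 12.5% (4.73 to 25.2%). Both yardsticks lay inside these intervals.

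**Figure D3:**
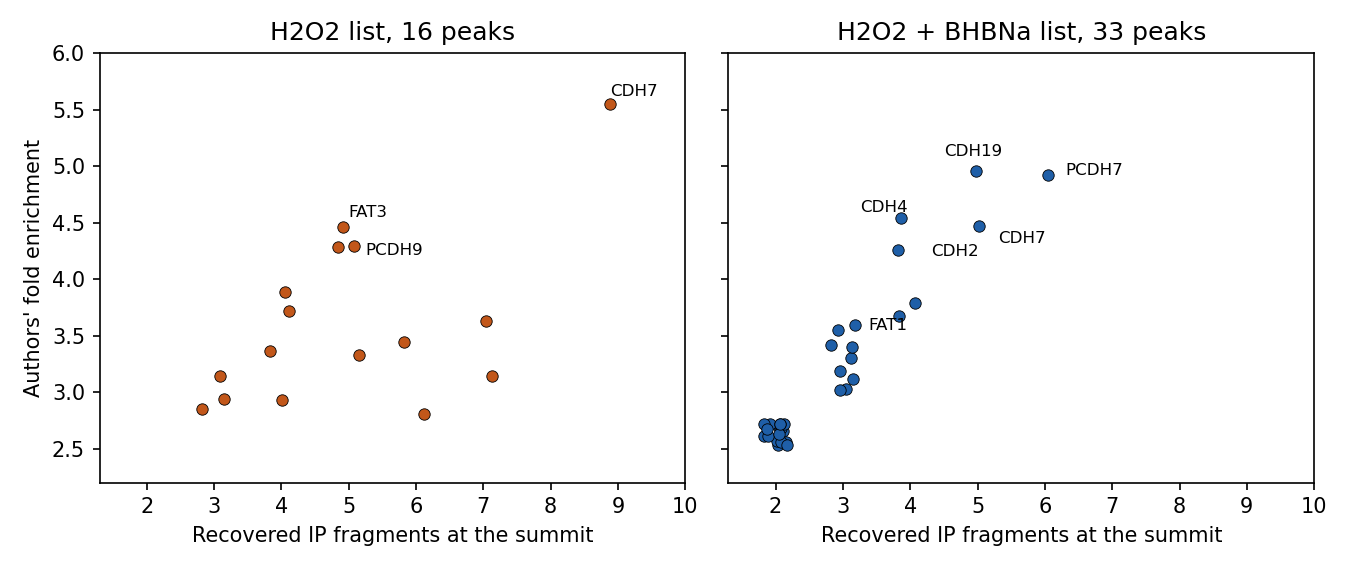
Authors' fold enrichment (y axis) against recovered IP fragments at the summit (x axis) for the 16 H2O2 peaks (left) and 33 H2O2 + BHBNa peaks (right) in cadherin and protocadherin genes, with points of equal fragment number set slightly apart sideways. The H2O2 peaks start at 3 fragments and CDH7 stands highest at 9, and 17 H2O2 + BHBNa peaks sit at 2 fragments and under 2.8-fold.

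The genes were next compared with the sequence within 500 kb on either side of them. These flanks held 2.35 peaks per Mb under H2O2 (1.88 to 2.9) and 3.84 under H2O2 + BHBNa (3.23 to 4.52), against 2.25 and 4.63 in the genes. The intervals of genes and flanks overlapped in both lists. At 3 fragments or more under H2O2 + BHBNa, the genes held 2.25 per Mb and the flanks 1.81. Among the 9 loci over 200 kb, the flanks were denser than the locus in 5 under H2O2 and in 4 under H2O2 + BHBNa, and the locus was denser in 2 and 5. Under H2O2 the loci denser than their flanks were FAT3 and CDH2.

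**Figure D4:**
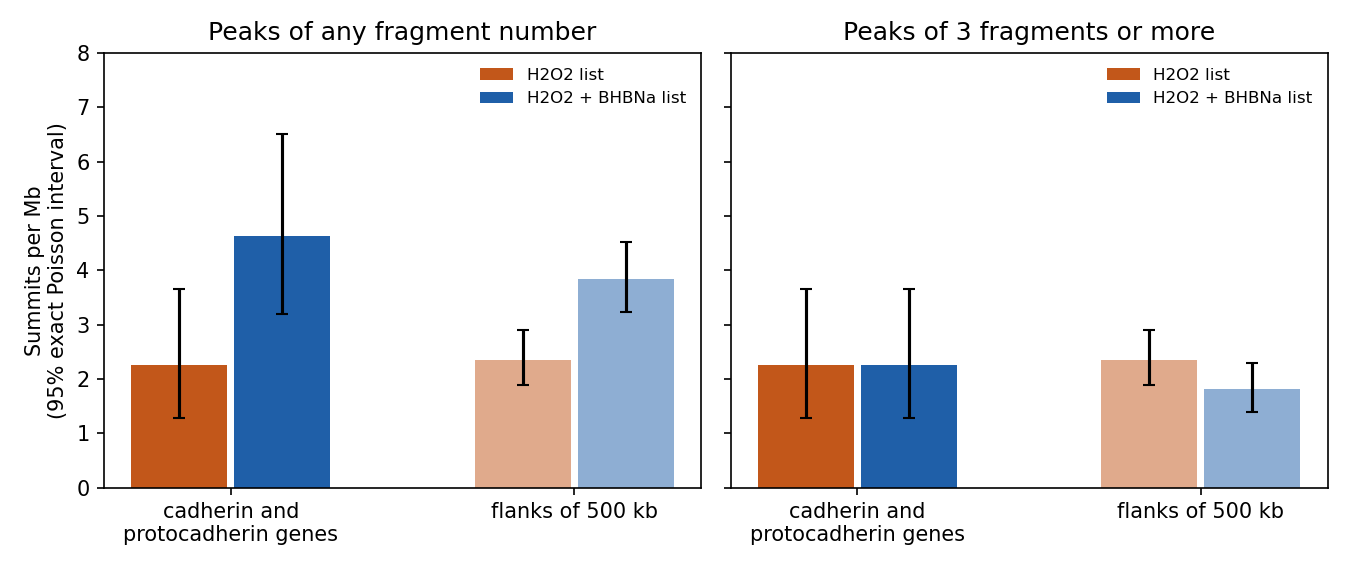
Summits per Mb (y axis) in the merged cadherin and protocadherin genes (dark bars) and in their 500 kb flanks (pale bars), for all peaks (left) and peaks of 3 fragments or more (right). Error bars are 95% exact Poisson intervals for counting error, and those of genes and flanks overlap in both lists and both panels.

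Chromosome 18, singled out after its values were seen, held 11 of the 98 genes, namely CDH2, CDH7, CDH19, CDH20 and the 7 desmosomal genes. Under H2O2, 3 of them held a summit, with 2.93 peaks per Mb (0.605 to 8.57) against 2.34 in other genes of that chromosome. Under H2O2 + BHBNa, 7 held a summit, with 9.77 peaks per Mb (4.69 to 18) against 3.82. At 3 fragments or more the 10 peaks became 6, or 5.86 per Mb (2.15 to 12.8) against 1.73. The genes lay on 12 chromosomes, and the value of other genes fell outside the interval on 1 of them under H2O2 + BHBNa and on 2 under H2O2. Those 2 were chromosome 11, where all 6 peaks were in FAT3 (8.77 per Mb, 3.22 to 19.1, against 1.49), and chromosome 16 (3.56, 0.734 to 10.4, against 0.629). Chromosome 5 held 60 of the genes, most of them clustered protocadherins, with 0 peaks under H2O2 and 5 under H2O2 + BHBNa. Per Mb this was 0 (0 to 3.19) against 2.41 in other genes of that chromosome, and 4.33 (1.4 to 10.1) against 4.06. In both lists the value of other genes lay inside the interval. None of these chromosome comparisons was matched for gene length. Genome-wide, density in other genes rose from the shortest to the longest length class. It went from 0.752 to 2.61 per Mb under H2O2 and from 2.32 to 4.21 under H2O2 + BHBNa.

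Of the 12 cadherins listed for their known place in kidney, its vessels or the loss of epithelial polarity, 2 held a summit under H2O2 and 5 under H2O2 + BHBNa, against 1.58 and 3.16 at the shares of other genes of their length. They held 2 and 6 peaks, against 2.05 and 4.53 at the density of other genes. CDH2 and CDH11 held a summit in both lists, and CDH3, CDH6 and FAT1 held one under H2O2 + BHBNa and none under H2O2. CDH1, CDH5, CDH16, CDHR2, CDHR5, FAT4 and PCDH1 held none in either list.

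Near the limits of the rule, 4 genes were too long. PCDH15, a tip-link protocadherin of 1830 kb, held 9 H2O2 and 7 H2O2 + BHBNa peaks, with an H2O2 peak of 6.49-fold (q 7.24e-06) on 13 fragments that exceeded every peak of the 98 genes. CDH13, the T-cadherin of vessels, held 1 and 5, the highest of 5.35-fold (q 0.000266) under H2O2 + BHBNa. CDH12 held 3 in each list and CDH18 held 1 and 4. Together these made 2.69 and 3.64 peaks per Mb. Just inside the limit, PCDH9 at 928 kb held 3 and 1 and CDH4 at 688 kb held 0 and 1. PCDH19, PCDH11X and PCDH11Y, on X and Y, held none in 1.71 Mb, and other genes of X and Y were not counted for comparison. No summit fell between a gene's end and the 1 kb limit. Just outside it, the PCDHG peak described above stood 1.54 kb from PCDHGB2. Of the peaks in none of the 98 genes, the nearest were an H2O2 + BHBNa peak 1.61 kb from CDHR3 (2.71-fold on 2 fragments) and an H2O2 peak 3.25 kb from CDH6 (3.03-fold on 3). An H2O2 + BHBNa peak of 4.77-fold (q 0.0116) stood 8.34 kb beyond PCDH7.

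The partners of cadherins were taken as lists. Of 16 catenins and other cadherin-bound proteins, which tie cadherins to the cytoskeleton, 4 held a summit under H2O2 and 5 under H2O2 + BHBNa. Counting the 14 under 1 Mb, 2 and 3 did, against 2.4 and 4.25 at the shares of other genes of their length. CTNND2, delta-catenin, held the highest H2O2 peak (6.53-fold, q 6.82e-05) and CTNNA3, alpha-T-catenin, the highest H2O2 + BHBNa peak (5.37-fold, q 0.00156). Of 9 further cadherin superfamily genes, 0 and 2 held one, led by CLSTN2 at 3.59-fold, against 1.71 and 2.8. Of 10 repressors of E-cadherin on the chromosomes used, 1 and 2 did, led by ZEB2 at 2.91-fold under H2O2 and TCF4 at 3.67-fold under H2O2 + BHBNa, against 1.24 and 2.13. None of 5 FAT and planar polarity partners held one, against 0.255 and 0.648.

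Marker genes were counted in the same way, although a histone mark does not measure expression and so cannot check the cell type. Of 14 proximal tubule markers, 2 held a summit under H2O2 (LRP2 and CUBN) and 3 under H2O2 + BHBNa (also PAX8), against 1.41 and 2.64 at the shares of other genes of their length. Of 5 epithelial markers 0 did in either list, against 0.202 and 0.491. Of 5 endothelial markers 0 and 2 did, against 0.552 and 1.23. Of 4 leukocyte markers 0 did in either list, against 0.219 and 0.477. Of 4 neuronal markers, long genes with a median span of 443 kb, 2 and 4 did, against 2.04 and 2.69.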

How the data were processed

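ChIP-seq of H3K4bhb was done in HK-2 cells with 1 IP and 1 control library per treatment. MACS2 2.2.7.1, Bowtie2 2.4.2, fastp 0.20.1, DiffBind, HOMER and ChIPseeker were named, per the submitters' processing notes, with the build GRCh38. What each did, and its settings, is not given in the sources used here. Both deposited files of a treatment held the same peaks, so each treatment had 1 list. The authors deposited, per peak, a score (10 times the −log10 p, cut to a whole number), a ratio (fold enrichment), and the −log10 of the p-value and q-value. In each list the deposited −log10 p began at 3.0, and q ran above 0.05.

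Peaks were assigned by summit to RefSeq GRCh38.p14 genes. The gene table gave no strand, exons or introns, so peaks are described by gene span, and starts and strand came from the RefSeq promoter table, which matched 76 genes. Fragments at the summit were recovered from fold and p, taking the fold as (fragments + 1) over (background + 1) and the p as a Poisson tail, with a tolerance of 0.001 or 0.01% on the −log10 scale. Length classes had limits at 20, 50, 100, 200, 500 and 1000 kb. Intervals are 95% Clopper-Pearson or exact Poisson intervals, PCR reads are not independent molecules, and a count of 0 was taken to allow 3. No test was run, because each group held 1 library.

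Genes named were those with a summit in both lists, the 10 highest folds of each list, q of at most 0.05, the kidney and epithelial cadherins, the genes at the limits of the rule, and the highest of each partner list. Of the partner lists, 2 are not reported here in full. Their genes under 1 Mb with a summit lay below the length yardstick under H2O2 (0 against 0.496 and 1 against 1.17) and above it under H2O2 + BHBNa (2 against 1.19 and 2 against 1.87). The other genes with a peak and the other type I and II genes without one were named after their values were seen. The genes and lists were chosen with earlier results of these data known. The closing section gives the alternatives tried: peak limits, windows, length bins, flanks and gene limits. Scripts were tested on simulated data and ran under Python 3.11.15 (scipy 1.17.1, pandas 2.3.3, numpy 2.4.6, matplotlib 3.10.9).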

Additional observations from a re-analysis of the deposited data

How the results depend on the processing

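Of 64 alternative values, 37 stayed close to those reported, 26 moved and 1 reversed. Some of the 37 could not change. The limit of 3 fragments removes no H2O2 peak, and no summit lay between a gene's end and the 1 kb limit. Close was a wide margin that took in 12 genes with a peak under H2O2, against 8, when genes of 1 Mb or more were included. The tally is therefore no measure of robustness. With q of at most 0.05, genes with a peak and peaks both fell to 1 under H2O2 and 6 under H2O2 + BHBNa, with 1 gene in both lists; the yardstick of other genes was then 0.814 and 3.28 loci and 0.92 and 4.1 peaks. With a −log10 q from 5 upward, all these counts were 0. With 3 fragments or more, H2O2 + BHBNa fell to 16 peaks in 13 genes, at a median fold of 3.57 and a yardstick of 8.62 loci and 13.7 peaks, and 4 genes held a peak in both lists; type II cadherins then held 5 peaks in 3 genes and chromosome 18 held 6. Including genes of 1 Mb or more gave 30 and 52 peaks, and leaving out FAT3 gave 10 under H2O2. The ratio of genes to flanks under H2O2 turned from 0.955 to 1.1 with flanks of 200 kb; the cause was not tested. Chosen after seeing the data were the yardstick at 3 fragments or at the q limit, the type II and chromosome 18 counts and the omission of FAT3. No paired analysis was possible because there was 1 library per group, so no library could be left out either. Most H2O2 + BHBNa peaks rested on 2 fragments, so single peaks of that size are weakly supported.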
